A study of Mus musculus with 3 samples.

Results

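The 49 genes described here are the structural genes of the cornified envelope and their neighbours in the epidermal differentiation complex. They were taken by name from the 19927 genes of the deposited matrices: every symbol that starts with *Lce* (19 genes), *Sprr* (8) or *S100a* (14), and *Lor*, *Flg*, *Flg2*, *Hrnr*, *Rptn*, *Crnn*, *Ivl* and *Crct1*. GENCODE M21 places 48 of them, all on mouse chromosome 3 of GRCm38, and *S100a7l2* was not found there. The cells came from the epidermis and hair follicles of dorsal skin of P18 mice, in 2 control libraries (*Vdr* flox/flox) and 1 library labelled *Vdr* cKO (*Vdr* flox/flox; Krt14cre), each of which pooled 3 male mice per the study's methods. Krt14cre acts from the *Krt14* promoter, which is used by basal keratinocytes and the outer root sheath. Cells outside these and their descendants keep the gene. The level of *Vdr* itself, in counts scaled to a common total per library (CPM), was 40.7 and 35.9 in the controls and 80.8 where the label says cKO, so the deleted gene was not lower there. Transcripts with and without the floxed exon are counted together, and the library is called cKO-labelled for this reason.

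The cornified envelope is the protein shell that replaces the plasma membrane of a keratinocyte as it dies to become a squame. Involucrin is laid down early as a scaffold, loricrin and the small proline-rich proteins are cross-linked onto it by transglutaminases, and late cornified envelope (LCE) proteins come last, while filaggrin and its relatives, which carry an S100-type calcium-binding domain fused to long repeats, condense keratin filaments inside the cell. S100A proteins are small calcium-binding proteins that many cell types make.

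The libraries held 1480, 1658 and 2622 cells, in the order control 1, control 2 and cKO-labelled, which is kept below, with 18802408, 28690129 and 30954897 counts. The members took 2.82%, 2.55% and 2.28% of these counts, and 1.501%, 1.258% and 1.08% when *Lor* was left out. Libraries shared 84, 85 and 60 cell barcodes with another library. Without them the number of members over 2-fold from both controls stayed at 5, and the log2 folds of the summed groups were -0.76 for *Lce*, 0.31 for *Sprr*, 0.38 for *S100a* and -0.77 for the S100-fused genes, against -0.74, 0.33, 0.37 and -0.77 with them. Markers of other cells differed between the libraries: the summed level of 7 basal keratinocyte genes was 4710, 3401 and 12676 CPM, that of 7 inner root sheath genes 0.585, 2.54 and 235 CPM, and that of 5 suprabasal genes 83228, 95894 and 60186 CPM. Their part in the results below was not tested. Levels are also given within classes of *Lor* level, which did not match the libraries in basal markers. With 1 library of the cKO label no test was made, and spread between libraries can be judged from the gap between the controls alone.

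Promoters are shown for 6 members that mark the main patterns below: *Lor*, by which cells were ordered; *Flg*, lower in the cKO-labelled library; *Lce1m*, *Lce1a2* and *Lce1l*, which belong to the late members; and *S100a6*, higher in that library. They are RefSeq sequences of GRCm38.p6, each of 250 bases before and 50 after an annotated start, read along the gene. They lie at chr3:92083093-92083392 (minus strand), chr3:93273296-93273595 (plus strand), chr3:93019012-93019311 (minus strand), chr3:92670266-92670565 (minus strand), chr3:92851237-92851536 (minus strand) and chr3:90612644-90612943 (plus strand). Capitals mark TGANTCA, the AP-1 type motif, searched on both strands, and TATAAA and ATAAAAG, searched along the gene only.
Lor: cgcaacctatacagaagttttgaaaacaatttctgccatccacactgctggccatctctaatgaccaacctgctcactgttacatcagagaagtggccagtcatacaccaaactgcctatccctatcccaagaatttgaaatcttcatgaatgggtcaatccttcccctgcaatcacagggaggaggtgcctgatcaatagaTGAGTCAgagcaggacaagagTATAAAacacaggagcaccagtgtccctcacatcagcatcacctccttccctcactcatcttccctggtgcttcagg
Flg: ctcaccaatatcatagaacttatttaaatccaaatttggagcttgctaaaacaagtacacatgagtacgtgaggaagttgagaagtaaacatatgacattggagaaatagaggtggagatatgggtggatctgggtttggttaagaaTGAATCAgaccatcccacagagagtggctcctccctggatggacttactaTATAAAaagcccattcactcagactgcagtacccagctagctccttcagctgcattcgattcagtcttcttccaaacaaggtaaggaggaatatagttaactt
Lce1m: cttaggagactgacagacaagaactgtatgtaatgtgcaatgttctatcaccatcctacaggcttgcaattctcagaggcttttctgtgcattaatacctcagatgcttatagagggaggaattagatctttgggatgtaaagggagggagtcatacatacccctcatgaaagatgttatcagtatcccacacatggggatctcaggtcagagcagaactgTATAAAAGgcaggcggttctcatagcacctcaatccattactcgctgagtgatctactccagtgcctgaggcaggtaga
Lce1a2: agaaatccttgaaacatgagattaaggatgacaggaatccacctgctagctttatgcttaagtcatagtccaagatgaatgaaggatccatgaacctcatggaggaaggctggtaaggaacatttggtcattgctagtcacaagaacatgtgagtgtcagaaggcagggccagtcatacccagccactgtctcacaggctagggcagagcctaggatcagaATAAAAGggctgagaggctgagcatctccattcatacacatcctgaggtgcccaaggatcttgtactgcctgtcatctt
Lce1l: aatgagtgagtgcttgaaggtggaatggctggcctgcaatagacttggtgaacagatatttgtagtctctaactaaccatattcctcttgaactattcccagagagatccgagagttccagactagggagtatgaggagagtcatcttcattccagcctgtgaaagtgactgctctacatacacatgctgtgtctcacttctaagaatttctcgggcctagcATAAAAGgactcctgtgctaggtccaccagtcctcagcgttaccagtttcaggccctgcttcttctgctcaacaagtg
S100a6: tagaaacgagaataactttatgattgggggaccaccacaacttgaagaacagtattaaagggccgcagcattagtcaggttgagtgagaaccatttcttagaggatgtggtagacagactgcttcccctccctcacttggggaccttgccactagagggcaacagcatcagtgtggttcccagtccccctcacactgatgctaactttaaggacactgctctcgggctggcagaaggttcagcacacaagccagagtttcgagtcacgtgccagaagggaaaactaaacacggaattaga

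RefSeq held 47 such promoters for 43 of the 49 members. TGANTCA was in 14 of the 47 (29.8%), against 7.81% of all 32851 promoters of the same length, and TATAAA in 18 (38.3%), against 8.32%. ATAAAAG, which was picked after reading the sequences printed here and shares letters with TATAAA in *Lce1m*, was in 17 (36.2%), against 3.38%. In *Lce1m*, *Lce1a2* and *Lce1l* it began at base 223, 222 and 223 of the 300. Among the late members defined below TGANTCA was in 1 of 7 promoters (*Flg*), and among the other members followed along *Lor* in 5 of 10. CACACCC was in 3 of the 47 promoters against 7.95% of all, and AGATAA in 6 against 11.2%, both searched on both strands. A relaxed form of the direct repeat with a spacer of 3 bases, the type of site bound by the vitamin D receptor, was in 0 of the 47, against 0.700% of all. At so low a share, 0 of 47 cannot tell the members from other promoters, and sites outside the 300 bases were not searched. Family members arose by duplication and share sequence, so these promoters are not independent of each other.

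Of the 49 members, 21 reached 50 CPM in at least 1 library, 12 peaked between 10 and 50 CPM and 16 stayed under 10 CPM. Among the 21, the cKO-labelled library lay below both controls for 13, above both for 4 and between them for 4, where 35.9% of all 3919 genes at that level lay below both and 38.4% above both. Over 2-fold from both controls, with nothing added to the CPM, were *S100a6*, which was higher, where 4.06% of the 3919 genes were higher, and *Flg*, *Lce1b*, *Lce1f* and *Lce1l*, which were lower, where 1.2% were lower. The median log2 fold (cKO-labelled library against the controls' mean, 1 CPM added to both) was -0.55 for the 21 members and 0.00 for all genes tested. Counted in either direction, the 5 members stand beside 5.26% of all genes. With control 1 in its place 5 members were over 2-fold from both others, beside 1.81% of all genes, and with control 2 there was 1, beside 1.89%, so the number of members did not set the cKO-labelled library apart from control 1.

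**Figure D1:**
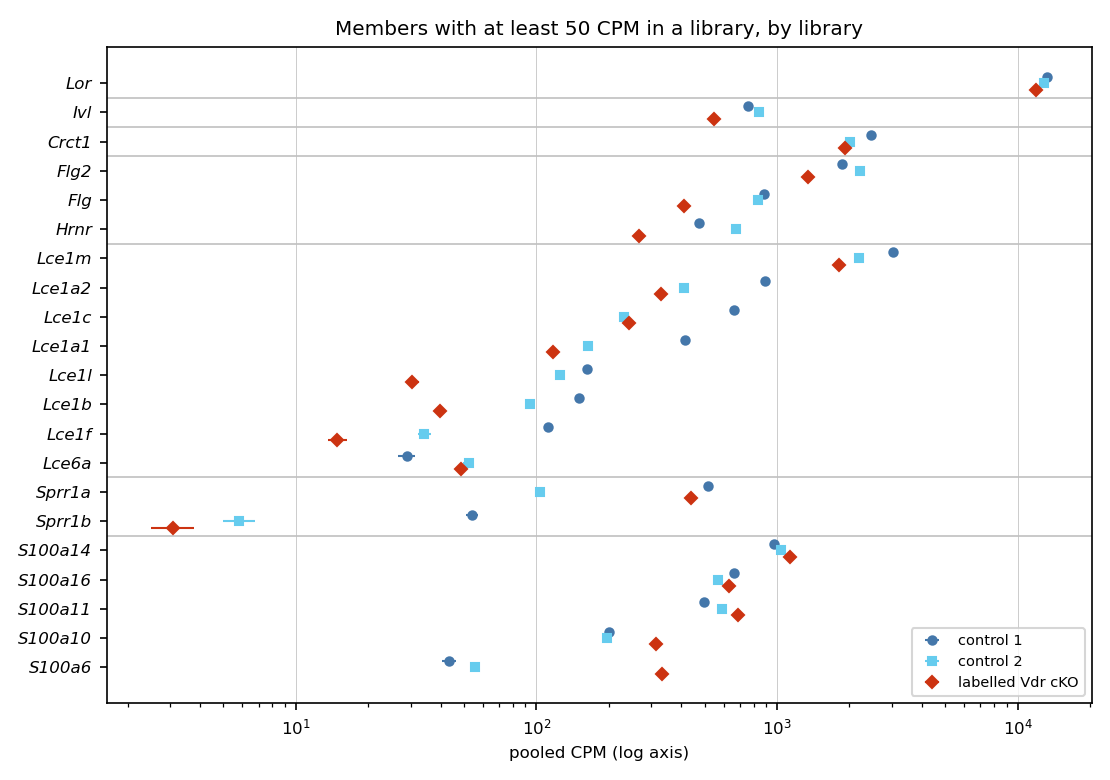
Pooled CPM (log axis) of the 21 members with at least 50 CPM in a library, grouped by family; points are libraries and bars are exact Poisson intervals, mostly hidden by the points. The cKO-labelled library is left of both controls for *Flg*, *Flg2*, *Hrnr* and *Ivl* and far right of them for *S100a6*, while the controls stand apart for *Sprr1a* and most *Lce1* genes.

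*Lor*, the main protein of the envelope, had 13227, 12928 and 11930 CPM and was found in 97.2%, 97.9% and 96.1% of the cells. The log2 fold of -0.13 was larger than the log2 ratio of the controls, 0.03. Its range over the alternatives to the processing was -0.61 to -0.10, so it stayed below the controls' mean in all of them. *Ivl*, the early scaffold protein involucrin, had 759, 840 and 547 CPM, with a log2 fold of -0.55. *Crct1*, a cysteine-rich protein gene beside the *Lce* genes, had 2453, 2009 and 1925 CPM, and control 2 and the cKO-labelled library were close.

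All 3 S100-fused genes at the level lay below both controls in the cKO-labelled library. The family's summed level was 3218, 3720 and 2039 CPM, a log2 fold of -0.77 where the controls differed by a log2 ratio of -0.21. *Flg*, which encodes profilaggrin, had 880, 834 and 412 CPM, with 95% intervals of 867 to 894, 823 to 844 and 404 to 419. Both controls were above it, and the log2 fold of -1.06 ranged from -1.36 to -0.67 over the alternatives, and *Flg* was not over 2-fold lower when each gene was counted once per cell. These intervals are exact Poisson intervals, cover counting error only, and are too narrow where copies of a molecule were counted repeatedly. *Flg2*, a filaggrin relative, had 1855, 2206 and 1350 CPM, with a log2 fold of -0.59. *Hrnr*, which encodes hornerin, had 473, 678 and 267 CPM, with a log2 fold of -1.10 and less than 2-fold between the third library and control 1. *Rptn*, repetin, had 10.1, 1.71 and 6.53 CPM. *Crnn*, cornulin, had 0 counts in both controls, which allows up to 0.160 and 0.105 CPM at 3 counts, and 89 counts (2.88 CPM) in 9 cells of the cKO-labelled library.

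The shares of cells with a count of *Flg* were 17.3%, 19.0% and 13.8% when each cell was thinned to 1000 counts, and 25.3%, 32.6% and 27.2% of the same cells without thinning. Cells held a median of 377, 502 and 688.5 detected genes at like median counts, so thinning to equal counts may not make detection alike between libraries. In the cells with the least *Lor*, the lowest of the classes defined below, the thinned shares were 7.396%, 5.33% and 6.16%, which may hold free RNA. A pooled level cannot tell fewer expressing cells from less RNA per cell.

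The *Lce* genes summed to 5550, 3364 and 2665 CPM, a log2 fold of -0.74, but the controls alone differed by a log2 ratio of 0.72. *Lce1m* had 3034, 2184 and 1803 CPM. *Lce1a2* had 893, 412 and 330 CPM. *Lce1c* had 664, 231 and 243 CPM and *Lce1a1* 415, 164 and 118 CPM, so for these abundant members control 2 lay nearer to the cKO-labelled library than to control 1. The calls of *Lce1l*, *Lce1b* and *Lce1f* were all lost when cells needed at least 500 detected genes, and that of *Lce1f* without control 1. The limit of 500 genes kept 421, 837 and 1828 of the 1480, 1658 and 2622 cells, an unequal share of the libraries. *Lce1l* had 162, 126 and 30.5 CPM. Its log2 fold was -2.20, and the controls differed by a log2 ratio of 0.36. *Lce1b* had 150, 94.0 and 39.7 CPM and *Lce1f* 112, 34.3 and 14.9 CPM. Their transcripts resemble each other: 31.9% of the 50-base windows in the last 500 bases of *Lce1b*, 24.2% of those of *Lce1c* and 20.1% of those of *Lce1a1* also occur in another gene, so reads may have been split between them. *Lce6a* had 28.9, 52.3 and 48.4 CPM, and the *Lce3* genes together 11.6, 4.64 and 9.89 CPM.

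The *Sprr* genes, which encode small proline-rich cross-bridging proteins, were mostly counts of *Sprr1a*, and the controls stood apart. *Sprr1a* had 516, 104 and 439 CPM, so the control libraries lay on either side of the cKO-labelled library. *Sprr1b* had 54.0, 5.82 and 3.10 CPM, and *Sprr2h* 23.8, 3.31 and 3.17 CPM. The summed log2 fold was 0.33 and the controls differed by 2.33, and without control 2 the fold turned to -0.41.

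The *S100a* genes summed to 2437, 2526 and 3215 CPM, a log2 fold of 0.37 where the controls differed by -0.05, and 0.24 without *S100a6*. *S100a6*, calcyclin, had 43.3, 55.6 and 334 CPM, with intervals of 40.4 to 46.4, 52.9 to 58.4 and 328 to 341. Its log2 fold was 2.73 and ranged from 1.78 to 2.93 over the alternatives. In cells thinned to 1000 counts it was found in 2.66%, 5.13% and 22.6%, and without thinning in 6.55%, 11.1% and 43.5%. Detected genes per cell also differed between the libraries (medians of 377, 502 and 688.5), so these shares are not matched for detection. *S100a10*, the partner of annexin A2, had 200, 197 and 315 CPM, a log2 fold of 0.66 between the lowest, 0.25, and the highest, 0.87, of the alternatives. *S100a11* had 499, 588 and 689 CPM, but its log2 fold of 0.34 became -0.17 when each gene was counted once per cell, and 42.1% of its windows also occur in the pseudogene *Gm12854*. *S100a14* had 971, 1040 and 1137 CPM, and *S100a16* 665, 569 and 632 CPM, between the controls. With each gene counted once per cell their log2 folds turned from 0.18 to -0.23 and from 0.03 to -0.24, so *S100a6* and *S100a10* alone of the 5 at the level stayed above the controls' mean under that setting.

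Low members gave few counts. *S100a4* had 4.79, 1.99 and 28.2 CPM, though 56.3% of its windows are shared with the annotated gene *Gm42674*. *S100a8* and *S100a9*, which encode the subunits of calprotectin, had 8.99, 23.7 and 0.323 CPM and 6.49, 9.06 and 3.97 CPM. *S100a3*, a hair cuticle protein gene that overlaps *S100a2* by 1262 bases, had 1.01, 11.05 and 21.5 CPM.

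Cells were placed in 5 classes by their own *Lor* level: under 3000 CPM, 3000 to 10000, 10000 to 20000, 20000 to 40000, and 40000 or more. Only cells of at least 1000 counts were used, and the level of each other gene was taken over the total without *Lor*. The top class held 73, 106 and 96 cells. For each gene with at least 100 counts in at least 20 cells of every library, a position was computed as the mean class weighted by the gene's level, from 1 for a gene found only in the lowest class to 5 for the highest. This was possible for 21 members, which are not all the same genes as those above 50 CPM.

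The members formed a graded order that the libraries shared. Lowest were *S100a13* at 2.28, *S100a1* at 2.37 and *S100a10* at 2.55 (means of the 3 libraries), followed by *S100a6* at 2.60, *Sprr1a* at 2.68, *S100a11* at 2.74 and *S100a16* at 2.97. *Ivl* stood at 3.06 and *S100a14* at 3.19. The S100-fused genes came next, with *Hrnr* at 3.54, *Flg2* at 3.94 and *Flg* at 4.29, and *Crct1* stood at 4.56. *Lce6a*, at 4.26, lay between *Flg2* and *Flg*, apart from the other *Lce* genes. The *Lce1* genes ended the order, from *Lce1f* at 4.63 to *Lce1c* at 4.73, *Lce1l* at 4.75 and *Lce1a2* at 4.79. Neighbours mostly did not differ beyond the spread between libraries: the median SD of a member's position was 0.12, and that of *S100a1* was 0.64. *Krt1* and *Krt10*, the suprabasal keratins, stood at 2.56 and 2.79, *Krtdap* at 3.33, *Casp14*, the protease of filaggrin breakdown, at 3.56, and the cross-linking enzymes *Tgm3* and *Tgm1* at 2.56 and 3.78. The median over all 6746 genes that met the same limits was 2.79. Spearman's rho of the 21 positions between libraries was 0.86 (controls 1 and 2), 0.93 (control 1 and cKO-labelled) and 0.92 (control 2 and cKO-labelled), and 0.36, 0.35 and 0.40 over the 6746 genes. This is a correlation across genes, which are not independent replicates, and each library's positions rest on the same cells.

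**Figure D2:**
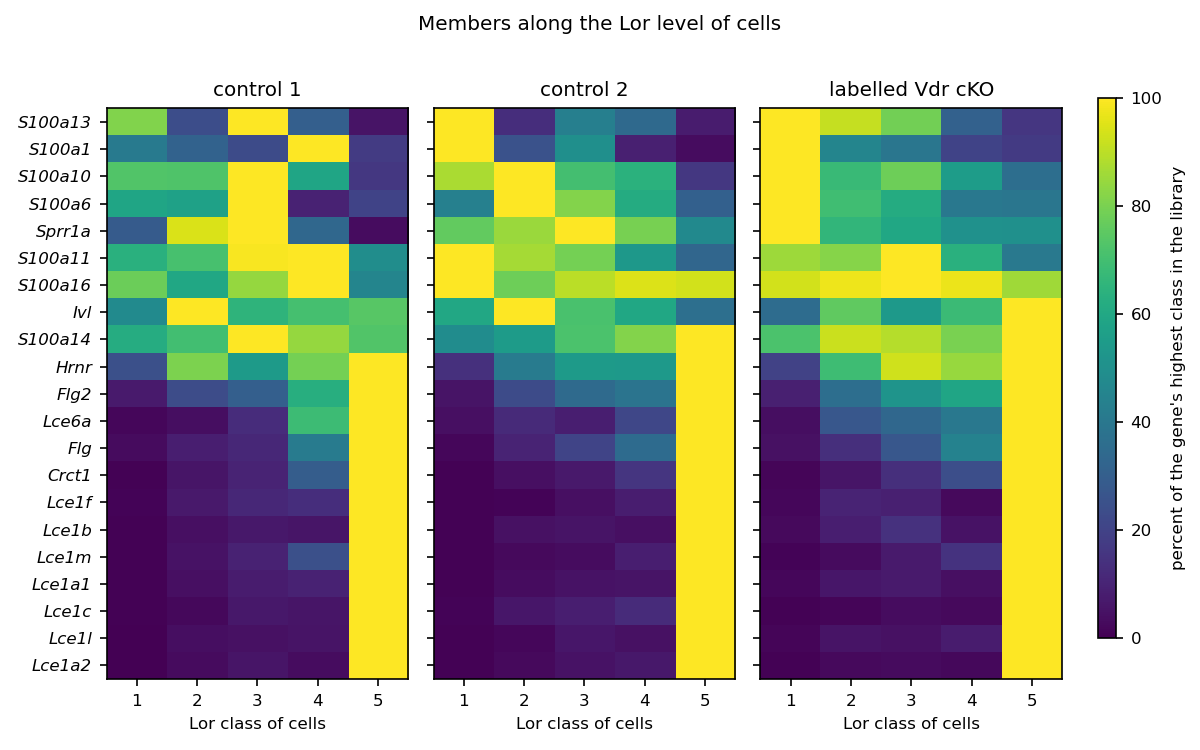
Level of 21 members in 5 classes of cells ordered by *Lor* (columns), as a percent of the gene's highest class in that library (colour), 1 panel per library, genes in order of mean position. The *S100a* genes at the top are bright across the left, the S100-fused genes brighten by steps, and the *Lce1* genes are bright in the top class alone in all 3 panels.

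Late members were those that reached 50% of their highest level only in the top class in all 3 libraries. They were *Crct1*, *Flg* and 7 *Lce1* genes, 9 of 21 members, where 1.32% of the 6746 genes were late. Early members, at 50% or more in the lowest class in all 3 libraries, were *S100a10*, *S100a11*, *S100a13* and *S100a16*, where 51.1% of all genes were early. The late group rose by unlike steps. From the fourth to the top class, *Lce1a2* went from 292 to 8790 CPM in control 1, from 245 to 3691 in control 2 and from 94.4 to 4358 in the cKO-labelled library, or 30.1, 15.1 and 46.2 times. *Flg* rose 2.40, 2.88 and 2.26 times over the same step, and *Flg2* 1.59, 2.60 and 1.70 times. From the lowest to the fourth class *Flg* had already risen 14.1, 20.2 and 9.46 times, *Crct1* 40.3, 28.0 and 16.2 times and *Lce1a2* 9.15, 8.63 and 2.94 times. The rise of *Lce1a2* to the top class lay in the few Lce1-rich cells described below. The other cells of that class had 203, 23.8 and 44.3 CPM of it, over a total that includes *Lor*. They were split off by a lower summed level of *Lce1* genes other than *Lce1m*. *Lce1m* still had 15030, 12079 and 11273 CPM in those other cells. When each gene was counted once per cell, 0 members were late. The share of cells with a count was also higher in the top than in the lowest class when cells were thinned to 1000 counts: *Flg* was found in 7.396%, 5.33% and 6.16% of the lowest class and in 57.5%, 58.5% and 54.2% of the top class, and *Lce1a2* in 6.80%, 4.23% and 4.83% and in 24.7%, 24.5% and 18.8%. Over the cells of all classes the shares were 17.3%, 19.0% and 13.8% for *Flg* and 16.6%, 13.5% and 9.76% for *Lce1a2*. Shares in the middle classes are not given, so they do not show that detection of *Lce1a2* began late.

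The counts of the *Lce1* genes lay in very few cells. In each library 50% of all counts were held by the 68, 132 and 194 deepest cells. For *Lce1a2* 3, 4 and 2 cells held 50% of the gene's counts, for *Lce1l* 2, 3 and 2, and for *Lce1m* 7, 11 and 17. For *Flg* it was 10, 26 and 37 cells, for *Lor* 17, 40 and 57, and for *S100a14* 42, 79 and 127. In the controls such concentration was not particular to *Lce1*. For *Sprr1a* it was 3, 7 and 31 cells, for *S100a13* 4, 3 and 26, and for *S100a1* 6, 6 and 15. The spread over cells thus far exceeds the Poisson intervals of the *Lce1* genes.

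**Figure D3:**
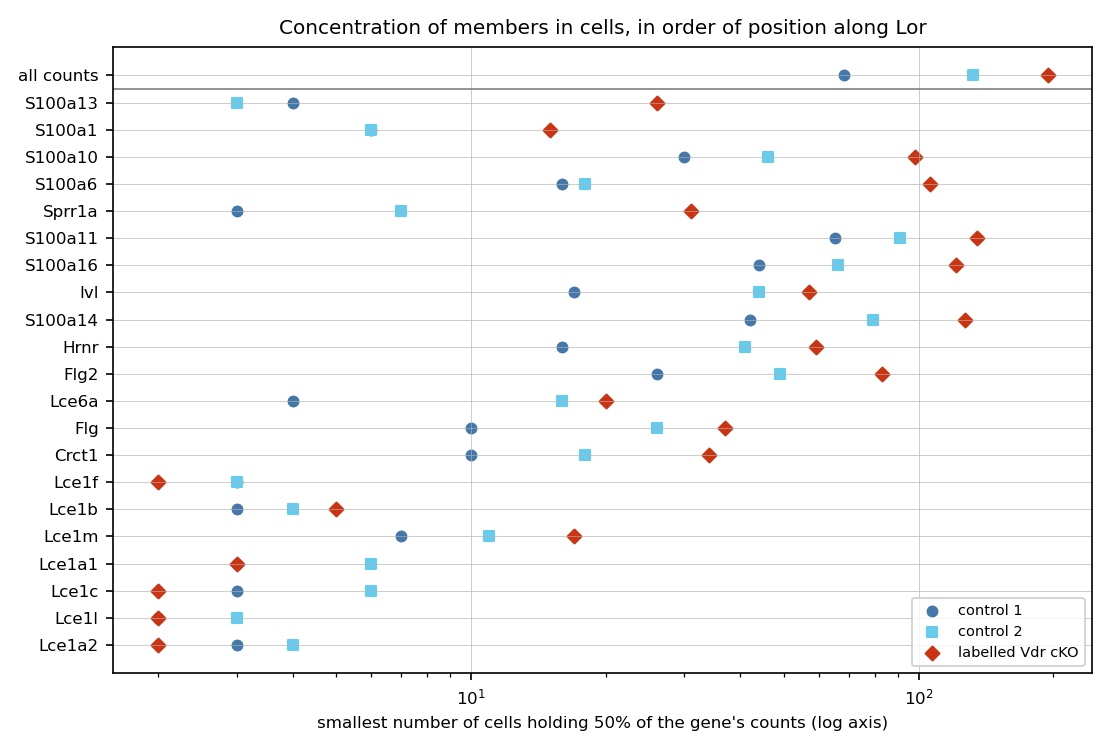
Smallest number of cells that held 50% of a gene's counts (log axis) for all counts and the 21 members in order of position; points are libraries. *S100a11*, *S100a14* and *S100a16* lie above 40 cells in every library, while the clustered *Lce1* genes lie at 2 to 6.

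*Lce1m* lies apart from the other *Lce1* genes, next to *Crct1*, and the others form a cluster between *Lce6a* and the *Lce3* genes. Within the top *Lor* class the summed level of this cluster (*Lce1a1* to *Lce1l*) had a median of 318, 180 and 0 CPM per cell and an upper decile of 16361, 55915 and 9628 CPM. Cells of the top class with at least 10000 CPM of the cluster, a limit set after these values were seen, are called Lce1-rich here. They numbered 8 of 73, 23 of 106 and 10 of 96, and 6, 6 and 8 cells of the class lay between 5000 and 20000 CPM, near the limit. Of all cells they were 0.546% (exact binomial interval 0.236 to 1.07%), 1.44% (0.915 to 2.15%) and 0.390% (0.187 to 0.717%). These intervals take cells as independent and cover the sampling of cells only. They hold no spread between mice or libraries, so they do not test a difference between libraries. The Lce1-rich cells held 77.6%, 79.7% and 71.6% of the cluster's counts, and a high share of these follows from the choice of cells. Of the *Lce1m* counts they held 34.2%, 35.9% and 24.4%, of the *Lor* counts 18.7%, 9.05% and 8.01%, and of all counts 2.80%, 1.13% and 0.749%. A further 25, 22 and 13 cells at that level of the cluster had less *Lor*.

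The other members of the top class were compared between Lce1-rich and other cells as pooled CPM. *S100a14* was lower in the Lce1-rich cells of every library, at 179 against 1259 CPM in control 1, 312 against 1790 in control 2 and 276 against 1453 in the cKO-labelled library. *Lor* itself was higher in the Lce1-rich cells, at 88522 against 78359, 103269 against 71170 and 127548 against 60021 CPM, so the cells compared were not alike in *Lor*. *Crct1* was higher in every library, at 23786 against 13498, 35187 against 12622 and 34109 against 11160 CPM, as was *Lce1m*, at 37108 against 15030, 69288 against 12079 and 58816 against 11273. *Hrnr* was lower in control 1, at 297 against 1123 CPM, and in the cKO-labelled library, at 315 against 470 CPM. In control 2 its levels were close, at 1583 against 1885 CPM. These totals include *Lor* and the cluster genes, which took a larger share of the Lce1-rich cells, and levels without them were not computed. *Flg* had no common direction, at 1746 against 6342, 5442 against 4398 and 4906 against 1441 CPM. The median depth of the Lce1-rich cells was 20102, 8839 and 11603 counts, and that of the others 5681, 15936 and 8333, so depth had no common direction. Barcodes of Lce1-rich cells that also occur in another library numbered 0 in each library, and 0 pairs of them within a library were a single base apart.

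**Figure D4:**
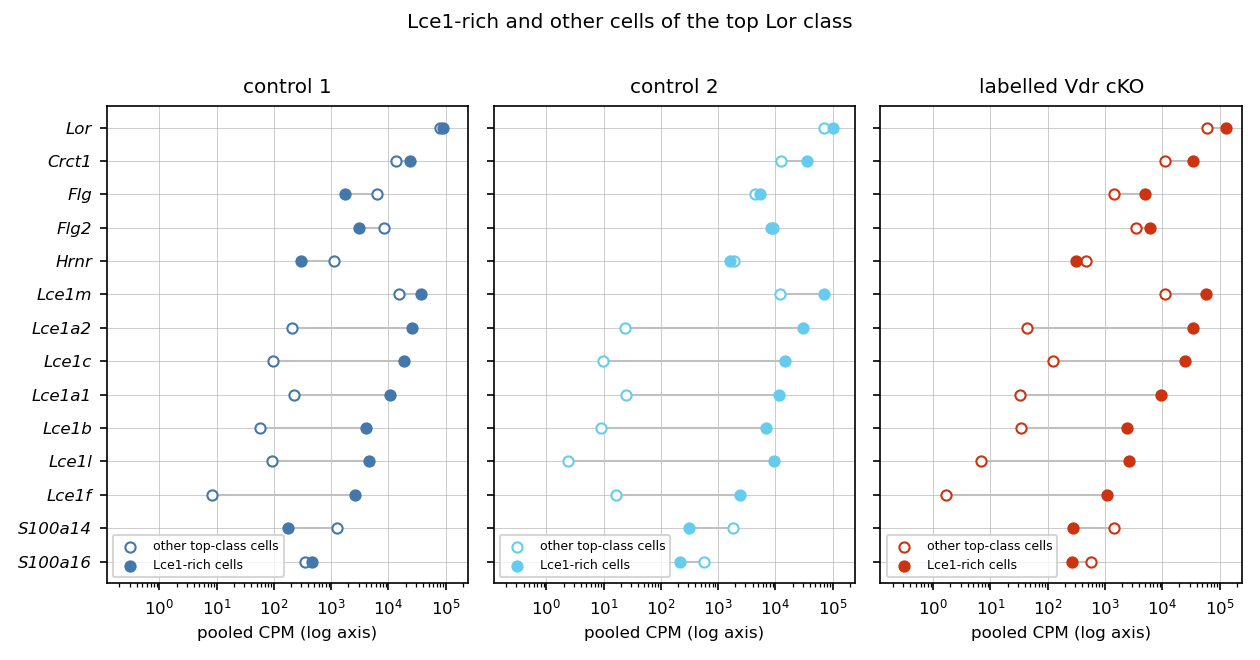
Pooled CPM (log axis) of 14 members in Lce1-rich cells (filled) and in the other cells of the top *Lor* class (open), 1 panel per library; the clustered *Lce1* genes chose the cells and are shown as a description. *S100a14* is to the left and *Crct1* and *Lce1m* to the right in the Lce1-rich cells of all 3 libraries.

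The difference in summed *Lce* between libraries was also computed without the Lce1-rich cells, an alternative added after seeing the data. The *Lce* genes then summed to 2665, 1693 and 1658 CPM. The log2 fold was -0.39 in place of -0.74, with a log2 ratio of 0.65 between the controls. This move was smaller than the spread between the controls, an SD of 0.51 in log2. Without the 2% of cells with the most counts the fold was -1.30. These deepest cells held 23.0%, 1.68% and 39.6% of the *Lce* counts.

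Within classes of *Lor* level the S100-fused genes were still lower in the cKO-labelled library. Their sum lay below both controls in all 5 classes, with log2 folds of -0.65, -0.64, -0.50, -0.94 and -1.21 from the lowest class to the top, where the controls differed by log2 ratios of 0.07, -0.28, -0.69, 0.22 and -0.28. The end classes were open and not alike in pooled *Lor*: 564, 653 and 895 CPM in the lowest and 81466, 74823 and 67875 CPM in the top. Median detected genes in the top class were 407, 751.5 and 1007.5. In the top class it was 13601, 16551 and 6516 CPM. *Flg2* and *Hrnr* were each below both controls in all 5 classes, and *Flg* in 4, with 92.6 CPM between 84.0 and 158 CPM in the lowest. The share of all genes below both controls in all 5 classes was not computed. This was not particular to the family: the cornification genes *Dmkn*, *Sbsn*, *Spink5*, *Klf4* and *Klk7* were also below both in all 5. *Krt10* and *Tgm1* were above both in the top class. *Flg* in the top class had 5375, 4882 and 1979 CPM. *Ivl* was below both controls in the lower 4 classes and above both in the top class, at 880, 483 and 1020 CPM.

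*S100a6* was over 2-fold above both controls in each of the 5 classes. It had 46.3, 43.5 and 445 CPM in the lowest class and 15.8, 30.7 and 174 CPM in the top class. The share of all genes that did so in all 5 classes was not computed. The basal keratins *Krt5*, *Krt14* and *Krt15* were also above both controls in every class, so the *Lor* classes did not match basal content. The part of the cell mix in the level of *S100a6* was not tested. The number of members over 2-fold lower was 1, 2, 2, 7 and 6 from the lowest class to the top, where 3.27%, 2.89%, 2.39%, 4.24% and 6.84% of all genes were lower, and it was 1, 1, 2, 1 and 3 for members over 2-fold higher, where 5.95%, 6.33%, 4.36%, 7.65% and 14% were higher. Members tested were 13, 20, 20, 22 and 25. Summed *Lce* showed no such evenness: it was above both controls in the lowest class, between them in the next 3 and below both in the top class. *S100a* without *S100a6* was above both controls in the lower 2 classes and between them in the others.

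**Figure D5:**
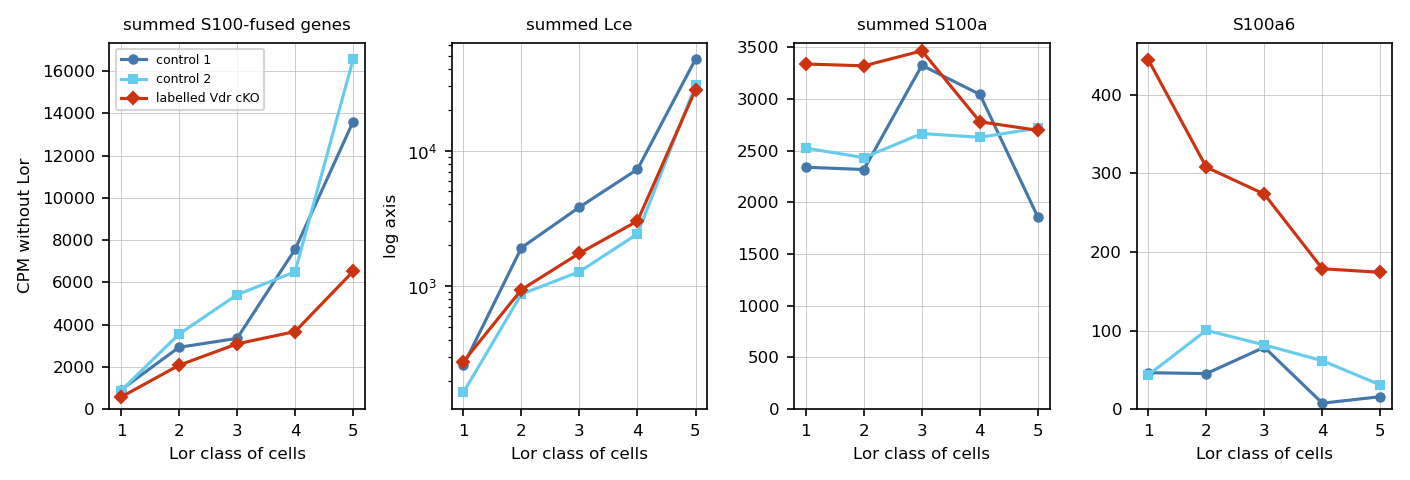
Level over the total without *Lor* of the summed S100-fused genes, *Lce* genes (log axis), *S100a* genes and *S100a6* in 5 classes of cells by *Lor*; lines are libraries. The cKO-labelled library is lowest in every class for the S100-fused genes and highest in every class for *S100a6*. For *Lce* it is above both controls in the lowest class, between them in the middle classes and below both in the top class.

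Several *S100a* genes were high in cells rich in markers of a named kind, taken as the top 5% of cells of each library by the summed level of a marker list. Other pairs of gene and list are not given, nor is the share of all genes that were higher in such cells. *S100a6* had 213, 164 and 764 CPM in the 5% richest in basal keratinocyte markers, against 37.2, 53.8 and 319 CPM in the other cells. The cKO-labelled library was higher within both, but the 5% was cut in each library and not at a matched basal level. Summed basal markers were 4710, 3401 and 12676 CPM over whole libraries, and the part of the cell mix was not tested. *S100a10* had 598, 1069 and 791 CPM in the 5% richest in basal markers against 186, 182 and 297 CPM elsewhere. A joint list of upper follicle and sebaceous markers held genes that went opposite ways between libraries. *Scd1* had 1784, 846 and 777 CPM and *Cst6* 906, 2025 and 3227 CPM, so the cells it picked may differ in kind between libraries. *S100a1* had 76.6, 131 and 75.6 CPM in the cells richest in this list against 9.97, 10.02 and 25.3 CPM elsewhere. *S100a8* had 69.3 and 441 CPM in those cells of the controls against 4.73 and 3.91 CPM elsewhere, and 10 counts in all in the cKO-labelled library. *S100a3* in that library had 341 CPM in the 5% of cells richest in inner root sheath markers against 13.8 CPM in the others, and 215 against 14.4 CPM for hair shaft markers. Hair shaft genes, 12 in the list, summed to 2.71, 10.7 and 83.3 CPM over whole libraries, so that the controls held few such cells or counts.

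Other genes of cornification were followed as a list of 35, with keratins, transglutaminases, proteases, desmosomal and lipid-processing genes and transcription factors. At 50 CPM or more were 30, of which 0 were over 2-fold from both controls, 25 lay below both and 2 above both, with a median log2 fold of -0.55. Of all 3919 genes at that level, 5.26% were over 2-fold from both controls, 35.9% lay below both and 38.4% above both. The median log2 fold of all these genes was 0.00. *Krt10* had 35192, 32952 and 24166 CPM, *Krt1* 2286, 2044 and 1487 CPM and *Casp14* 170, 228 and 152 CPM. *Tgm1* was above both controls, at 64.7, 67.4 and 78.3 CPM, and *Tgm3* had 12.5, 11.9 and 20.3 CPM. *Krtdap* had 16923, 28253 and 16925 CPM, level with control 1.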

How the data were processed

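Single-cell libraries were made by the authors on the Nadia droplet instrument, and the counts per gene and cell barcode that the authors deposited were used as given, without normalization. The labels name the mouse build mm10. An aligner setting, an annotation and a rule for collapsing copies of a molecule are not given in the sources used here, and 15.5%, 23.5% and 27.0% of the entries above 0 were equal to 1, so counts may include PCR copies. A barcode was kept as a cell when 200 genes or more were detected and mitochondrial counts were 20% or less, which gave a median of 4190, 4492.5 and 4055 counts. The median number of detected genes was 377, 502 and 688.5. Doublets were not called or removed, and leaving out the 2% of cells with the most counts was an alternative.

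Each library's counts were pooled over its cells and scaled to a common total (CPM). Log2 folds compare the cKO-labelled library with the controls' mean after 1 CPM is added to both. Calls needed at least 50 CPM in a library and over 2-fold from both controls. Samples were grouped by their labels. No test was made. The members named are the 8 given by symbol, every called member, the 4 most abundant of each family and those lowest and highest along *Lor*, with called genes and 6 landmarks among the other cornification genes. Members low in counts are described beside them, chosen after their values were seen. The members, gene lists and settings were chosen with earlier results of these data known. Positions came from GENCODE M21 (GRCm38). Alternatives were other cell limits, edgeR 4.0.16 TMM and DESeq2 1.42.0 factors, other totals, added CPM, levels and folds, each gene counted once per cell, other *Lor* classes and each control left out. Procedures were tested on simulated data. Simulated libraries differed less than the controls did for many *Lce1* and *Sprr* genes, and simulated counts were not held by few cells. The simulation therefore does not cover such genes. Python 3.11.15, numpy 2.4.6, scipy 1.17.1, pandas 2.3.3, matplotlib 3.10.9 and R 4.3.3 were used.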

Additional observations from a re-analysis of the deposited data

How the results depend on the processing

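No paired analysis was made, because the labels record no pairing of control and cKO-labelled libraries and there was only 1 cKO-labelled library. The number of members over 2-fold from both controls, 5 as reported, was 2 with at least 500 detected genes per cell, 9 without the 2% of cells with the most counts, 8 when cells' CPM were averaged, 9 at 10 CPM or more, 2 at 200 CPM or more and 8 at 1.5-fold; leaving out a control gave 6 to 9, the 9 without control 2. *Flg* and *S100a6* were among the members called in each of these settings, and *Flg* was lost when each gene was counted once per cell (7 called). The log2 fold of summed *Lce* was -1.30 without the deepest 2% of cells and -0.34 without control 1 and -1.06 without control 2. That of summed *Sprr* turned to -0.010 as the mean of the *Lor* classes and ran from -0.41 without control 2 to 1.91 without control 1. That of summed *S100a* was 0.43 with at least 500 genes, 0.097 with each gene counted once per cell, 0.19 with TMM, 0.16 with DESeq2 factors, 0.32 without the 20 most abundant and the mitochondrial genes, 0.23 with the mean of cells and 0.28 as the mean of *Lor* classes. That of the S100-fused genes was -0.93 without the deepest 2%, -0.95 with TMM, -0.98 with DESeq2 factors and -0.93 as the mean of *Lor* classes. Late members numbered 0 with each gene counted once per cell. TMM and DESeq2 factors moved the median log2 fold over all genes at the level to -0.19 and -0.22 and the share of calls that were higher from 77.2% to 54.6% and 50.2%. Causes were not tested. Of 350 values of 25 named members under 14 settings (*Crnn*, at 0 in both controls, is left out), 287 moved by less than the spread between controls and 63 by more, and 18 changed sign, in *Lce1c*, *Rptn*, *S100a1*, *S100a11*, *S100a14*, *S100a16* and *Sprr1a*. This tally depends on how far apart a gene's controls were, so it does not measure stability to processing. *Sprr1a*, with a control SD of 1.63 in log2, moved by less in all 14 settings. *S100a10*, with an SD of 0.013, moved by more in 10.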

Other observations

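Outside the members, the genes with the highest smallest ratio between Lce1-rich and other top-class cells over the 3 libraries, among those with at least 30 counts in the Lce1-rich cells of each, were *Ppif*, *Lnx1*, *Gpsm1*, *Gba2*, *Gm5849* and *Kctd4*. *Ppif*, which encodes the mitochondrial peptidyl-prolyl isomerase cyclophilin D, had 306, 238 and 289 CPM in the Lce1-rich cells (controls 1 and 2, then the cKO-labelled library) and 1.67, 0 and 0.568 CPM in the others. *Lnx1*, which encodes a ubiquitin ligase, had 401, 605 and 488 CPM against 4.19, 0 and 4.55 CPM. Genes were kept by their counts in the Lce1-rich cells and ranked by this ratio, so low levels in the other cells follow from the choice. How many of the Lce1-rich cells held these counts is not given here. The cells were few and were chosen after seeing the data, and no test was made.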
